A study of Homo sapiens with 8 samples.

Results

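The 9 genes described here encode the pathway that carries an interferon signal from the cell surface to the nucleus: the ligand IFNB1, the receptor chains IFNAR1, IFNAR2, IFNGR1 and IFNGR2, the kinases JAK1 and TYK2, the transcription factor STAT2 and the inhibitor SOCS1. They were chosen by symbol, with earlier results of these data known. All 9 were found, each in 1 row, among the 60592 gene rows of every library. RNA was sequenced from WSU-DLCL2, an established human cell line of diffuse large B-cell lymphoma, a cancer of mature B cells. The 4 groups, with 2 libraries each, were FDX1-overexpressing (FDX1-OE) cells given 15 nM elesclomol (ES) for 48 h, control cells of wild-type genotype given the same dose, FDX1-OE cells given DMSO, and control cells given DMSO. Elesclomol is a drug that binds copper and brings it into the cell, and FDX1 encodes the mitochondrial protein ferredoxin 1, which reduces that copper. The series asks how overexpression of FDX1 alters the transcriptional response to the drug. All groups derive from 1 cell line. The vector, the promoter driving FDX1, whether the FDX1-OE cells are 1 clone and whether control cells carried an empty vector are not stated in the labels. Nor do they say whether paired libraries of a group were grown as separate cultures, so the p-values reflect the scatter of these samples alone, and that scatter may be technical.

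Type I interferons such as interferon beta bind a receptor made of IFNAR1, which carries the kinase TYK2, and IFNAR2, which carries JAK1. The kinases phosphorylate STAT proteins, among them STAT2, which joins IRF9 in a complex that binds interferon-stimulated response elements (ISRE) in DNA. Interferon gamma binds IFNGR1, which carries JAK1, together with IFNGR2, which carries JAK2, and acts through STAT dimers at gamma-activated sites (GAS). SOCS1 is itself induced by this signalling and inhibits the JAK kinases.

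Promoter sequences are shown for the ligand, for the gene with the largest fitted change among the 9 (STAT2) and for the inhibitor, because these genes lie at the start, the middle and the end of the pathway. They are the 250 bases before the transcription start in RefSeq on GRCh38.p14, all on the minus strand: chr9:21077943-21078192 for IFNB1, chr12:56360108-56360357 for STAT2 and chr16:11256205-11256454 for SOCS1. Capitals mark letters that match any of 4 motifs searched on both strands: the ISRE core (GAAA, NN and GAAA in a row), the IRF half-site AANNGAAA (which lies inside every ISRE match), the GAS core TTCNNNGAA and the NF-kB core (GGGA, NN and TTCC in a row), where N is any base.
IFNB1: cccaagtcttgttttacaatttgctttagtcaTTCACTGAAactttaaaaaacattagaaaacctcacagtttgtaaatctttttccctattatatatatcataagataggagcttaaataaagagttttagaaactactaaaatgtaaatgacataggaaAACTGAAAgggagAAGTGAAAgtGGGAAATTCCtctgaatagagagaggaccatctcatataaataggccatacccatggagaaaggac
STAT2: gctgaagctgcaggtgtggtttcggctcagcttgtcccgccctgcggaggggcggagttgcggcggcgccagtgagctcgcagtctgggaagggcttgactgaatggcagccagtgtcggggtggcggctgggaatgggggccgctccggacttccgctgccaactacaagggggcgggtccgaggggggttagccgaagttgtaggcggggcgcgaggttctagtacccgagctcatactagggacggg
SOCS1: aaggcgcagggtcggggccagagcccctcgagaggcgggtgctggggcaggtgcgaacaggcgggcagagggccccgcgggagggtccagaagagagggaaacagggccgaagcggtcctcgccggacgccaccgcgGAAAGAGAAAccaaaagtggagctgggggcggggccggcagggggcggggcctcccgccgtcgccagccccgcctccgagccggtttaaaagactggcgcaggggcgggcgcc
The SOCS1 window held 1 ISRE match, beginning 113 bases before the start. In the IFNB1 window 2 IRF half-sites began 89 and 76 bases before the start, beside an NF-kB match at 66 bases and a GAS match at 218 bases. The STAT2 window held none of these letters. RefSeq gave 12 windows for 8 of the 9 genes, several genes having more than 1 start. Among these 12, the ISRE core was found in 1 (SOCS1) and the GAS core in 1 (IFNB1). The IRF half-site was found in 3 windows (IFNB1, JAK1 and SOCS1) and the NF-kB core in 2 (IFNB1 and IFNGR2). Of all 35116 RefSeq windows of this length, 3.02% held the ISRE core, 20.3% the IRF half-site, 6.57% the GAS core and 1.40% the NF-kB core. These are matches of letters, not measured binding sites.

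The deposited values are FPKM, the number of fragments scaled to gene length and library size. FPKM summed to 408018 and 403024 in the FDX1-OE ES libraries and to between 445716 and 451027 in the other 6. The absolute depth is unknown, so no counting intervals are given. FDX1 stood at 60.7 and 59.4 FPKM in FDX1-OE ES cells, 9.88 and 10.0 in control ES cells, 59.8 and 56.0 in FDX1-OE DMSO cells and 10.8 and 10.4 in control DMSO cells, so each library matched its genotype label. The 13 mitochondrial messenger RNAs made up 14.7% and 11.9% of FPKM in FDX1-OE ES cells, and 16.9 to 17.6% in the other libraries. All 8 B cell markers examined reached 1 FPKM in every library, with summed levels of 1450 and 1489 FPKM in FDX1-OE ES cells and 1589 to 1631 FPKM in the other groups. The 8 did not move together. By the limma test described below, with the authors' scaling, CD38, PAX5 and CD79A were higher in ES in FDX1-OE cells. CD22, BCL6 and CD79B were lower there. These were 3 of the 8 in each direction, where 47.1% of all genes tested were higher and 13.7% lower. The 8 T and NK cell markers summed to 0.655 and 0.707 FPKM in FDX1-OE ES cells and 0 to 0.158 FPKM in the other libraries, through CD3E, CD8A and NKG7, while CD3D, CD3G, CD2, GNLY and KLRD1 were at 0 in all 8. Of 6 markers of plasmacytoid dendritic cells, the main interferon producers of blood, CLEC4C, IL3RA and GZMB were at 0 in all 8 libraries, and the list's sum of 10.3 to 15.9 FPKM was almost all TCF4. The 8 myeloid markers summed to 4.99 and 7.51 FPKM in FDX1-OE ES cells, 3.93 and 5.25 in control ES cells, 2.45 and 2.47 in FDX1-OE DMSO cells and 2.22 and 1.75 in control DMSO cells. Of these, CD68, TYROBP, ITGAM, FCER1G and CSF1R were highest in the FDX1-OE ES libraries, while CD14 was at 0 in both. AIF1, the most abundant of the 8, stood at 2.88 and 4.33 FPKM in FDX1-OE ES cells and 3.21 and 3.91 in control ES cells. LYZ also overlapped between these groups. The T and NK sum, the B cell sum and the mitochondrial share set the FDX1-OE ES libraries apart, as several results below did. The myeloid sum was higher in the ES libraries than in the DMSO libraries but overlapped between the ES groups. The part of these sums and of the mitochondrial share in the results below was not tested. In bulk RNA, fewer cells of a type and less RNA per cell cannot be told apart.

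With the authors' scaling, ES raised the RNA of most of this pathway in FDX1-OE cells, and STAT2 most of all. Of the 9 genes, 8 passed the filter of at least 1 FPKM in at least 2 libraries, and 7 of these 8 were higher in ES than in DMSO by limma at an adjusted p below 0.05 (Benjamini-Hochberg over the 12063 genes tested). In the same comparison 47.1% of all genes tested were higher, and the median log2 fold change was 0.52 over the 8 genes and 0.25 over all genes tested. In control cells ES raised 1 of the 8, STAT2, where 6.74% of all genes were higher. Among ES-treated cells, FDX1-OE cells had higher levels than control cells of 6 of the 8, where 31.1% of all genes were higher. The ES effect was larger in FDX1-OE than in control cells for 3 of the 8 (STAT2, SOCS1 and JAK1) by a test of the difference itself, where 13.9% of all genes were. None of the 8 differed between FDX1-OE and control cells in DMSO, where 0.00829% of all genes (FDX1 itself) were higher and 0 were lower. At an unadjusted p below 0.05, 0 of the 8 genes and 420 of all genes tested differed there. Counted by overlap, both FDX1-OE ES libraries lay above both FDX1-OE DMSO libraries for 8 of the 8 genes, as for 58.9% of all genes, and both control ES libraries above both control DMSO libraries for 5 of the 8, as for 48.2%. FDX1-OE ES libraries lay above control ES libraries for 7 of the 8, as for 50.6%. In DMSO 2 of the 8 genes were higher and 1 was lower without overlap, where 19.5% of all genes were in each direction.

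**Figure D1:**
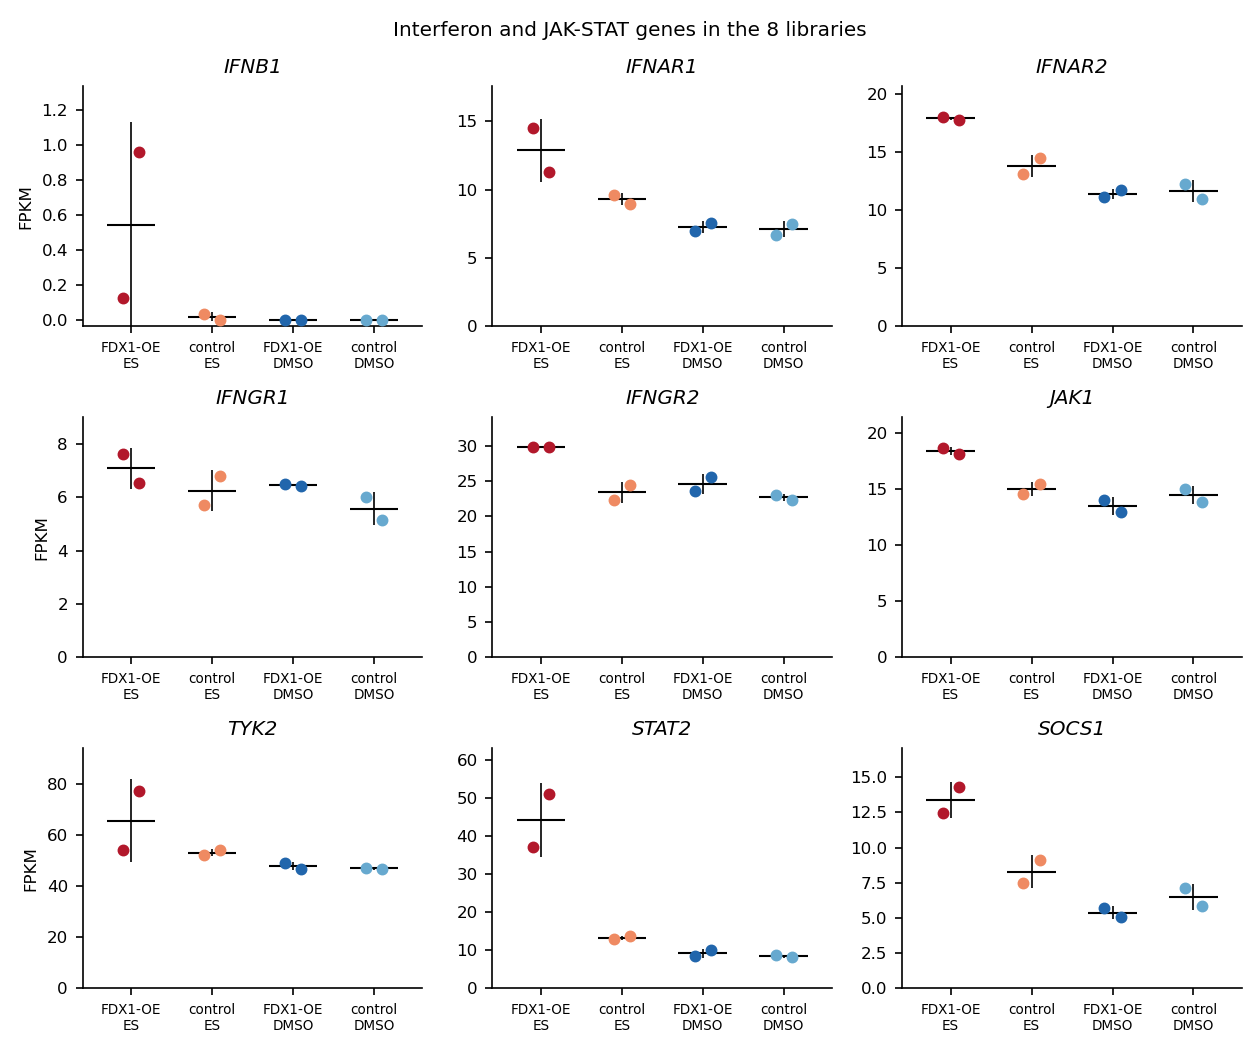
FPKM of the 9 genes in each of the 8 libraries by group, with the group mean (horizontal line) and SD (vertical line, n = 2; the lower end for IFNB1 is cut at the axis). STAT2 and SOCS1 lie highest in the 2 FDX1-OE ES libraries, and IFNB1 is above 0 in ES libraries only.

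The ligand gene IFNB1 was close to the floor of the data. It stood at 0.127 and 0.957 FPKM in FDX1-OE ES cells, 0.0373 and 0 in control ES cells, and 0 in both libraries of FDX1-OE DMSO and of control DMSO cells. Both FDX1-OE ES libraries lay above all others, yet they differed severalfold from each other, and no library reached 1 FPKM. IFNB1 was therefore not tested with the filter. Fitted without it, ES against DMSO in FDX1-OE cells gave a log2 fold change of 0.57 (SE 0.24, limma adjusted p = 0.151), which did not pass. Of 21 other interferon genes, 18 were listed at 0 in all 8 libraries, IFNG and 12 of the alpha genes among them. The remaining 3 were above 0 in 1 library each, at 0.0425 FPKM for IFNA21, 0.0569 for IFNL1 and 0.0793 for IFNL3, in each case an FDX1-OE ES library.

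Both chains of the type I interferon receptor were higher in ES in FDX1-OE cells. IFNAR1, the chain that holds TYK2, stood at 14.5 and 11.3 FPKM in FDX1-OE ES cells, 9.64 and 8.98 in control ES cells, 6.94 and 7.57 in FDX1-OE DMSO cells and 6.68 and 7.52 in control DMSO cells. The ES libraries lay above the DMSO libraries in both genotypes, and the FDX1-OE ES pair lay above the control ES pair. The log2 fold change of ES against DMSO was 0.74 in FDX1-OE cells (SE 0.12, adjusted p = 0.00109) and 0.35 in control cells (SE 0.12, adjusted p = 0.112). IFNAR2, the chain that holds JAK1, stood at 17.98 and 17.80 FPKM in FDX1-OE ES cells, 13.1 and 14.5 in control ES cells, 11.1 and 11.7 in FDX1-OE DMSO cells and 12.3 and 11.0 in control DMSO cells. Again the groups did not overlap between ES and DMSO. Its log2 fold change was 0.61 in FDX1-OE cells (SE 0.08, adjusted p = 0.00049) and 0.23 in control cells (SE 0.08, adjusted p = 0.128).

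Between ES-treated groups, FDX1-OE exceeded control by a log2 fold change of 0.42 for IFNAR1 (adjusted p = 0.0251) and 0.36 for IFNAR2 (adjusted p = 0.0117). The difference between the ES effects was not called for either, at 0.39 for IFNAR1 (95% interval 0.00011 to 0.79, adjusted p = 0.138) and 0.38 for IFNAR2 (0.11 to 0.65, adjusted p = 0.0586). The IFNAR1 call between ES-treated groups was lost under 8 of 16 alternative settings and the IFNAR2 call under 4, both of them under median-ratio scaling (log2 fold change 0.29, adjusted p = 0.103 for IFNAR1 and 0.22, adjusted p = 0.067 for IFNAR2), quantile normalisation and library weights. With no filter the adjusted p for IFNAR1 was 0.0834. The IFNAR1 call was also lost without FDX1-OE ES replicate 1 (log2 fold change 0.25, adjusted p = 0.0832), control ES replicate 1 (0.47, adjusted p = 0.0769) or control ES replicate 2 (0.37, adjusted p = 0.116), and the IFNAR2 call without control ES replicate 1 (0.29, adjusted p = 0.0883). Without FDX1-OE ES replicate 2, the difference between the ES effects passed for IFNAR1 (0.56, adjusted p = 0.0224).

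Of the receptor for interferon gamma, 1 chain of the 2 was called higher in ES in FDX1-OE cells. IFNGR2, its signalling chain, stood at 29.9 and 29.8 FPKM in FDX1-OE ES cells, 22.4 and 24.5 in control ES cells, 23.5 and 25.6 in FDX1-OE DMSO cells and 23.0 and 22.4 in control DMSO cells. The FDX1-OE ES libraries were above the other 6, which lay between 22.4 and 25.6 FPKM. Its log2 fold change of ES against DMSO in FDX1-OE cells was 0.27 (SE 0.07, adjusted p = 0.0114), 0.03 above the median of all genes tested. That call was lost without FDX1-OE DMSO replicate 1 (0.22, adjusted p = 0.0929). Between ES-treated groups it differed by 0.34 (SE 0.07, adjusted p = 0.00789), a call lost without control ES replicate 1 (0.28, adjusted p = 0.0653) and under median-ratio scaling (0.20, adjusted p = 0.0569). IFNGR1, the ligand-binding chain, stood at 7.63 and 6.54 FPKM in FDX1-OE ES cells, 5.70 and 6.78 in control ES cells, 6.49 and 6.43 in FDX1-OE DMSO cells and 5.997 and 5.125 in control DMSO cells. The 2 ES groups overlapped, and of the 8 genes tested IFNGR1 alone was called in none of the 5 comparisons. Its ES effect in FDX1-OE cells was 0.11 (SE 0.11, adjusted p = 0.413, 95% interval -0.15 to 0.38).

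The counting does not fully separate neighbouring genes. In the GENCODE annotation the exons of IFNGR2 overlap those of TMEM50B on the opposite strand, and whether the authors' counting used strand is not stated. TMEM50B stood at 15.8 and 14.4 FPKM in FDX1-OE ES cells, 12.3 and 11.1 in control ES cells, 10.2 and 10.1 in FDX1-OE DMSO cells and 9.19 and 10.9 in control DMSO cells, so the IFNGR2 values are uncertain by reads the 2 genes may share. IFNAR2 shares exon sequence with AP000295.1 and IL10RB-DT, which stayed at or below 0.45 and 0.963 FPKM, and JAK1 with RAVER2, at or below 0.00989 FPKM. AP000295.1 lies on the same strand as IFNAR2. How reads of their shared exons were counted is not stated, so its low value leaves the IFNAR2 values uncertain too. SOCS1 lies inside RMI2 on the opposite strand with no exon overlap. On chromosome 21 the genes IFNAR2, IL10RB, IFNAR1 and IFNGR2 follow one another on the plus strand. AP000295.1, which overlaps IFNAR2, starts between the starts of the first 2. IL10RB, the chain shared by the receptors of interleukin 10 and interferon lambda, was called higher in ES in FDX1-OE cells (log2 fold change 1.04, SE 0.08, adjusted p = 4.68e-05) and in control cells (0.63, SE 0.08, adjusted p = 0.00864). IFNLR1, the other chain of the interferon lambda receptor, was not called in FDX1-OE cells (-0.04, SE 0.08, limma adjusted p = 0.65).

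With the authors' scaling the receptor-bound kinases rose modestly in FDX1-OE cells given ES, and neither rise was called under median-ratio scaling. JAK1, which serves both receptors, stood at 18.7 and 18.1 FPKM in FDX1-OE ES cells, 14.5 and 15.5 in control ES cells, 14.0 and 12.9 in FDX1-OE DMSO cells and 15.0 and 13.9 in control DMSO cells. The FDX1-OE ES pair was above all other libraries, and the control ES pair overlapped the control DMSO pair. The ES effect on JAK1 was a log2 fold change of 0.42 in FDX1-OE cells (SE 0.08, adjusted p = 0.00198) and 0.05 in control cells (SE 0.08, adjusted p = 0.716), and the difference between them was 0.37 (SE 0.11, adjusted p = 0.0482). That difference lost its call under 13 of 15 alternative settings, among them leaving out any 1 library other than FDX1-OE ES replicate 2, where the log2 values were 0.32 to 0.43 and the adjusted p 0.0502 to 0.167. Between ES-treated groups JAK1 differed by 0.28 (adjusted p = 0.0222). That call was lost under 6 of 16 alternative settings, among them median-ratio scaling (0.14, adjusted p = 0.174), quantile normalisation (0.15, adjusted p = 0.183) and leaving out control ES replicate 1 (0.24, adjusted p = 0.131) or replicate 2 (0.32, adjusted p = 0.0543).

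TYK2, the kinase of the IFNAR1 chain, was the most abundant of the 9 per unit length. It stood at 54.2 and 77.0 FPKM in FDX1-OE ES cells, 52.0 and 53.9 in control ES cells, 49.0 and 46.6 in FDX1-OE DMSO cells and 47.2 and 46.5 in control DMSO cells. FDX1-OE ES replicate 2 stood far above every other library, while replicate 1 lay just above the control ES pair. The log2 fold change of ES against DMSO in FDX1-OE cells was 0.43 (SE 0.14, adjusted p = 0.0246), and 1 library set its size: it was 0.18 without FDX1-OE ES replicate 2 and 0.68 without replicate 1. The call was lost under 5 of 16 alternative settings, among them no filter (adjusted p = 0.102) and leaving out FDX1-OE DMSO replicate 1 (0.46, adjusted p = 0.0675) or replicate 2 (0.39, adjusted p = 0.109). Between ES-treated groups TYK2 differed by 0.28 (SE 0.14, adjusted p = 0.126), which passed without FDX1-OE ES replicate 1 (0.53, adjusted p = 0.000822). The difference between the ES effects, 0.26 (adjusted p = 0.365), also passed without that library (0.51, adjusted p = 0.00428). In control cells the ES effect on TYK2 was 0.17 (adjusted p = 0.441) and on IFNAR1 0.35, and both passed without FDX1-OE ES replicate 1 (adjusted p = 0.0388 for TYK2 and 0.031 for IFNAR1) or replicate 2 (0.0393 and 0.0306), since those libraries enter the shared estimate of spread.

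STAT2, the transcription factor specific to type I and type III interferon signalling, changed more than any other of the 9. It stood at 37.3 and 51.0 FPKM in FDX1-OE ES cells, 12.9 and 13.7 in control ES cells, 8.42 and 10.1 in FDX1-OE DMSO cells and 8.64 and 8.11 in control DMSO cells. All 4 ES libraries were above all 4 DMSO libraries, and both FDX1-OE ES libraries were far above both control ES libraries. The means were 44.1 ± 9.72 FPKM in FDX1-OE ES cells and 9.25 ± 1.17 in FDX1-OE DMSO cells (SD, n = 2 each), a ratio of 4.77. They were 13.3 ± 0.545 FPKM in control ES cells and 8.38 ± 0.375 in control DMSO cells (SD, n = 2 each), a ratio of 1.59. On the log2(FPKM + 1) scale the ES effect was 2.13 in FDX1-OE cells (SE 0.14, adjusted p = 2.2e-05) and 0.61 in control cells (SE 0.14, adjusted p = 0.0411).

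The STAT2 effects of ES differed by 1.52 between FDX1-OE and control cells (SE 0.20, 95% interval 1.06 to 1.98, adjusted p = 0.00442). FDX1-OE ES cells exceeded control ES cells by 1.64 (SE 0.14, adjusted p = 0.000246). These calls of STAT2 held under every alternative setting run. The call in control cells was lost under 9 of 16. It was lost without any 1 of the 4 DMSO libraries or the 2 control ES libraries (0.57 to 0.65, adjusted p 0.0649 to 0.234), and under median-ratio scaling (0.52, adjusted p = 0.0671). The 2 FDX1-OE ES libraries differed in STAT2 by 0.44 on the log2 scale, where the median gene differed by 0.16. In the other groups the median gene differed less, by 0.088 in control ES, 0.075 in FDX1-OE DMSO and 0.075 in control DMSO cells. The fit shares 1 estimate of spread per gene over the 4 groups. SEs of comparisons with FDX1-OE ES cells may therefore be too small, and those of the other comparisons too large.

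SOCS1, the JAK inhibitor, stood at 12.5 and 14.3 FPKM in FDX1-OE ES cells, 7.48 and 9.10 in control ES cells, 5.69 and 5.05 in FDX1-OE DMSO cells and 7.13 and 5.83 in control DMSO cells. The FDX1-OE ES libraries were above all others, and both control ES libraries lay above the DMSO libraries. Its ES effect was a log2 fold change of 1.18 in FDX1-OE cells (SE 0.13, adjusted p = 0.000161) and 0.31 in control cells (SE 0.13, adjusted p = 0.16). The effects differed by 0.86 (SE 0.18, adjusted p = 0.0175). In DMSO the FDX1-OE libraries lay below the control libraries without overlap, as for 19.5% of all genes tested, and the log2 fold change of -0.23 was not called (SE 0.13, adjusted p = 0.999). The call of the difference between the effects was lost with no filter (adjusted p = 0.0709) and without FDX1-OE DMSO replicate 1 (0.94, adjusted p = 0.0504) or 2 (0.79, adjusted p = 0.0717), control DMSO replicate 1 (0.74, adjusted p = 0.0652) or control ES replicate 1 (0.74, adjusted p = 0.07). Between ES-treated groups SOCS1 differed by 0.63 (adjusted p = 0.00619), which was lost without control ES replicate 1 (0.51, adjusted p = 0.0514), the library without which STAT2 alone of the 8 was called there.

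**Figure D2:**
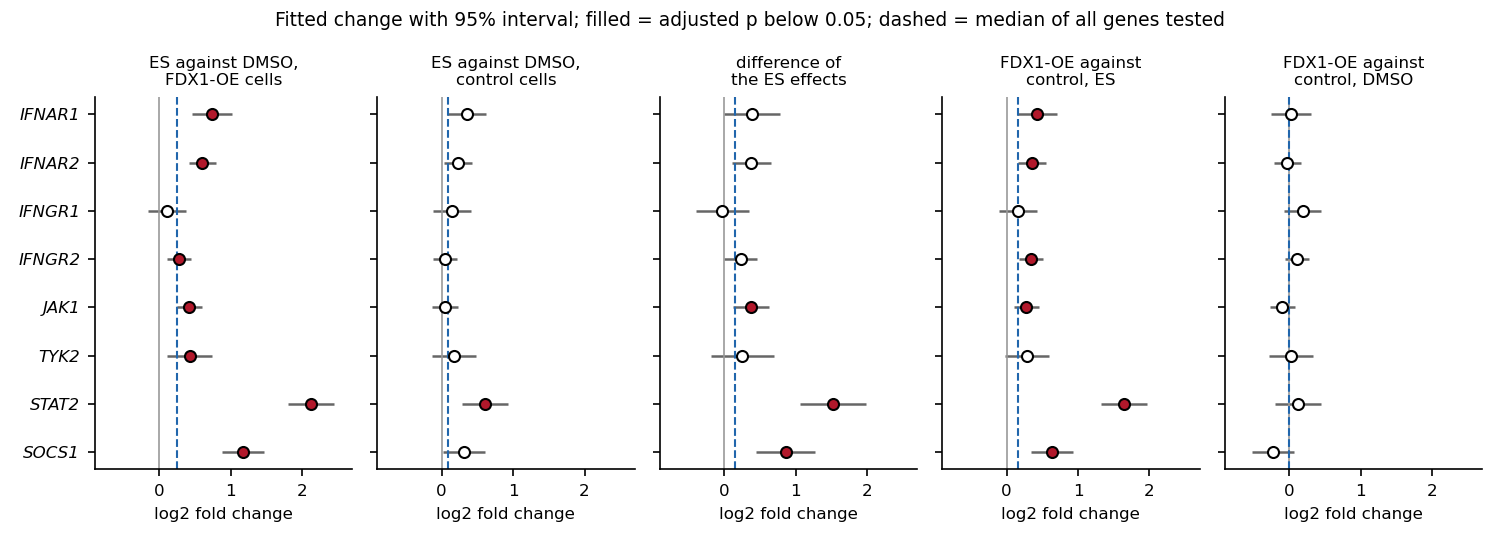
Log2 fold change on the log2(FPKM + 1) scale of the 8 genes tested in each of the 5 comparisons, with 95% intervals, filled points for adjusted p below 0.05 and a dashed line at the median of all genes tested. STAT2 is the 1 gene filled in 4 panels, and no gene is filled in the panel of FDX1-OE against control in DMSO.

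The scale of the libraries bears on the small effects. With the authors' scaling the median gene moved by 0.25 in FDX1-OE cells given ES, 0.09 in control cells given ES and 0.16 between the ES-treated groups. Relative to the median of all genes, the ES effect in FDX1-OE cells was 1.88 for STAT2, 0.93 for SOCS1, 0.49 for IFNAR1 and 0.36 for IFNAR2. It was 0.18 for TYK2, 0.17 for JAK1, 0.03 for IFNGR2 and -0.13 for IFNGR1. Under median-ratio scaling, which centres the libraries on their median gene, the first 4 of these genes were still called, at 1.90, 0.96, 0.53 and 0.39. Of all genes tested, 28.2% were then higher and 24.1% lower, where the authors' scaling gave 47.1% and 13.7%. JAK1 (0.20, adjusted p = 0.0512), TYK2 (0.20, adjusted p = 0.254) and IFNGR2 (0.05, adjusted p = 0.601) were not called. Quantile normalisation kept the call of TYK2 (0.40, adjusted p = 0.0392) and lost those of JAK1 (0.19, adjusted p = 0.0683) and IFNGR2 (0.14, adjusted p = 0.126). The IFNGR1 value, called under none of the 4 scalings, was -0.09 under median-ratio scaling and -0.22 under quantile normalisation.

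**Figure D3:**
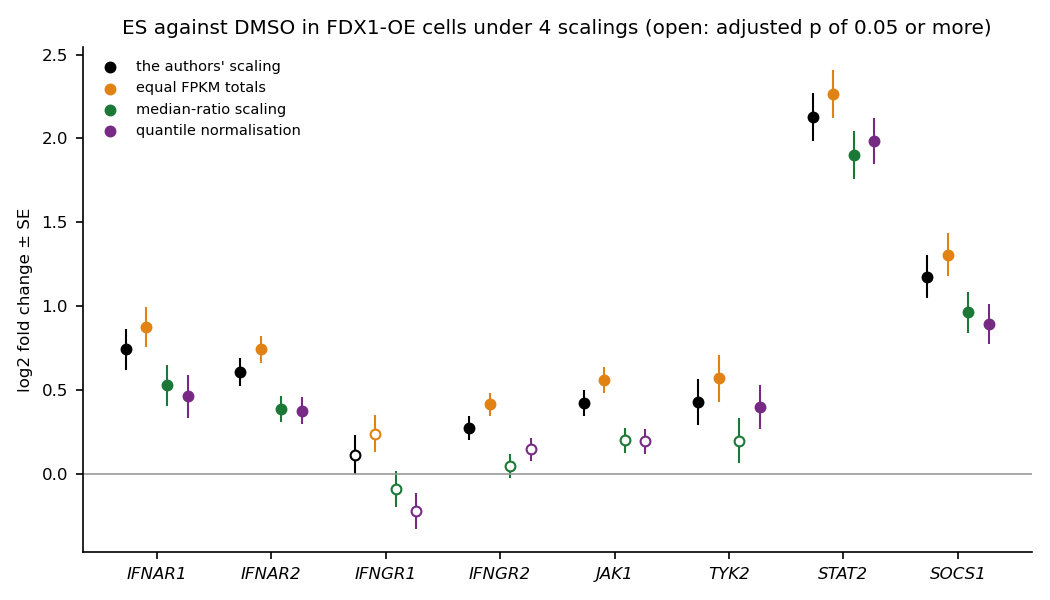
Log2 fold change of ES against DMSO in FDX1-OE cells (± SE) for the 8 genes tested under the authors' scaling and 3 others, with open points where the adjusted p is 0.05 or more. STAT2, SOCS1, IFNAR1 and IFNAR2 are filled under all 4 scalings, while IFNGR1 is open under all 4.

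The order of levels within a library shows the same shift. In both DMSO groups the order from highest to lowest began with TYK2, IFNGR2, JAK1, IFNAR2 and STAT2, none of which overlapped its neighbour. Lower down in control DMSO cells, IFNAR1 overlapped SOCS1 and SOCS1 overlapped IFNGR1. Control ES cells kept that order for the first 5, with IFNAR2 and STAT2 overlapping, as did IFNAR1 and SOCS1. In FDX1-OE ES cells STAT2 stood second, between TYK2 and IFNGR2, and SOCS1 and IFNAR1 overlapped. The ratio of 2 genes in a library does not depend on the library's scaling. STAT2 over TYK2 was 0.688 and 0.662 in FDX1-OE ES cells, 0.248 and 0.253 in control ES cells, 0.172 and 0.216 in FDX1-OE DMSO cells and 0.183 and 0.174 in control DMSO cells. STAT2 over JAK1 was 2.00 and 2.81 in FDX1-OE ES cells, 0.886 and 0.884 in control ES cells, 0.5999 and 0.7789 in FDX1-OE DMSO cells and 0.574 and 0.583 in control DMSO cells. STAT2 over SOCS1 was 2.99 and 3.57 in FDX1-OE ES cells, 1.724 and 1.502 in control ES cells, 1.48 and 1.99 in FDX1-OE DMSO cells and 1.21 and 1.39 in control DMSO cells. Relative to both kinases and to the inhibitor, STAT2 was thus higher in both FDX1-OE ES libraries than in any of the other 6. The ratios IFNAR2 over IFNAR1 and IFNGR2 over IFNGR1 overlapped between all groups, at 1.24 to 1.84 and 3.61 to 4.56 over the 8 libraries, so no shift between the chains of either receptor was seen beyond the spread.

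**Figure D4:**
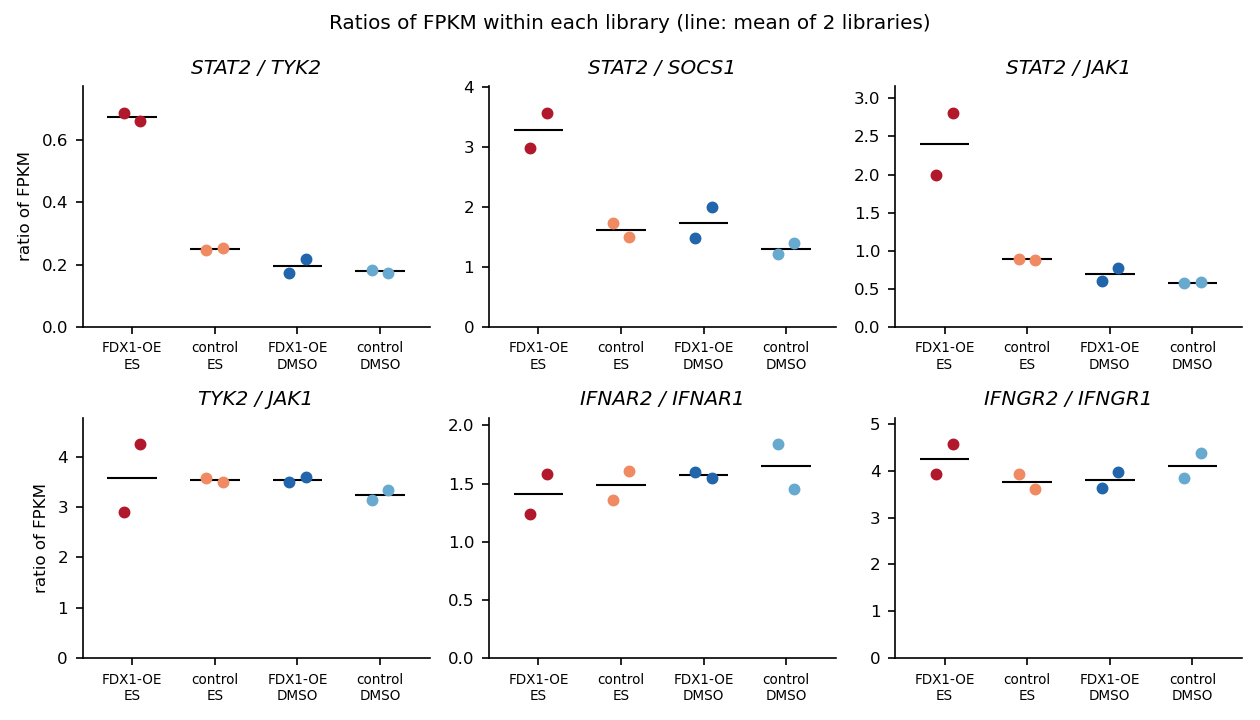
Ratio of FPKM of 2 genes within each library, by group, with the mean of the 2 libraries as a line. STAT2 over TYK2 is 0.688 and 0.662 in FDX1-OE ES cells and at most 0.253 in the other libraries, while the ratios within each receptor overlap between groups.

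IRF9, the partner of STAT2, and several other JAKs and STATs were also higher in ES in FDX1-OE cells. Among 7 tested genes of this list, ES raised 5 in FDX1-OE cells and 3 in control cells, none fell, and 4 had a larger effect in FDX1-OE cells. The shares of all genes tested were 47.1% and 6.74% higher in ES in these cells and 13.9% with a larger effect. The median log2 fold change of the 7 was 0.95 in FDX1-OE cells, where all genes tested had 0.25. Under quantile normalisation ES raised 4 of the 7 in FDX1-OE cells and 0 in control cells, and 2 had a larger effect in FDX1-OE cells. The shares above are those of the authors' scaling and do not apply to these counts. Among all genes tested, calls in control cells and for the difference also fell under quantile normalisation, as given at the end. IRF9, the DNA-binding partner of STAT2, stood at 13.0 and 16.6 FPKM in FDX1-OE ES cells, 2.47 and 2.64 in control ES cells, 1.63 and 1.42 in FDX1-OE DMSO cells and 1.34 and 1.12 in control DMSO cells, and its ES effect in FDX1-OE cells was 2.64 (SE 0.13, adjusted p = 5.5e-06).

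Other kinases and STATs also differed. JAK3, the kinase of the common gamma chain, rose by 1.76 (adjusted p = 3.3e-05) and STAT5A, a factor of interleukin signalling, by 1.68 (adjusted p = 7.7e-05) in FDX1-OE cells given ES. JAK2, the kinase of IFNGR2, stood at 3.09 and 2.76 FPKM in FDX1-OE ES cells, 1.08 and 1.58 in control ES cells, 1.10 and 0.959 in FDX1-OE DMSO cells and 0.844 and 0.914 in control DMSO cells. Its ES effect in FDX1-OE cells was 0.95 (SE 0.13, adjusted p = 0.000504). STAT6, the factor of interleukin 4 signalling, gave -0.02 with the authors' scaling (adjusted p = 0.823) and -0.25 under median-ratio scaling (adjusted p = 0.0115). Under that scaling 4 of the list were higher and 1 lower, where 28.2% of all genes tested were higher and 24.1% lower.

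Other inhibitors of the pathway moved in both directions. Of 12 tested genes among the other SOCS family members and further negative regulators, 7 rose and 1 fell in FDX1-OE cells given ES, a split near that of all genes tested (47.1% higher and 13.7% lower), with a median log2 fold change of 0.31 against 0.25 over all genes tested. Under median-ratio scaling 3 rose and 1 fell, where 28.2% of all genes tested were higher and 24.1% lower. With equal FPKM totals 9 rose and 1 fell, counts to which neither of these pairs of shares applies. CISH, SOCS2 and SOCS3, inhibitors known as targets of other STATs, did not pass the filter and stayed at or below 0.0314 FPKM. USP18, which displaces JAK1 from IFNAR2, stood at 24.8 and 37.0 FPKM in FDX1-OE ES cells, 3.26 and 2.11 in control ES cells, 0 and 0.11 in FDX1-OE DMSO cells and 0.0528 and 0.0871 in control DMSO cells. USP18 passed the filter through the ES libraries alone. Its ES effect was 4.90 in FDX1-OE cells (SE 0.20, adjusted p = 2.8e-06) and 1.77 in control cells (SE 0.20, adjusted p = 0.0048). PTPN6, the phosphatase SHP-1 that dampens JAK signalling, went the other way. It stood at 23.2 and 23.4 FPKM in FDX1-OE ES cells, 35.3 and 31.8 in control ES cells, 51.5 and 55.1 in FDX1-OE DMSO cells and 49.99 and 47.08 in control DMSO cells, and its ES effect was -1.16 in FDX1-OE cells (SE 0.07, adjusted p = 1.7e-05) and -0.52 in control cells (SE 0.07, adjusted p = 0.0107).

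Among 7 tested receptor chains of other cytokines that signal through JAK kinases, 5 rose and 1 fell in FDX1-OE cells given ES, where 47.1% of all genes tested were higher and 13.7% lower. Of the 5, IL15RA reached 1 FPKM in FDX1-OE ES cells alone and so passed the filter through that group. Another of the 5, IL2RA, reached 1 FPKM in ES libraries alone. IL2RA, the high-affinity chain of the interleukin 2 receptor, stood at 6.03 and 7.30 FPKM in FDX1-OE ES cells, 1.52 and 1.89 in control ES cells, 0.488 and 0.418 in FDX1-OE DMSO cells and 0.61 and 0.317 in control DMSO cells, an effect of 2.39 in FDX1-OE cells (SE 0.14, adjusted p = 1.5e-05). IL2RG, the common gamma chain that binds JAK3, rose by 0.63 (SE 0.06, adjusted p = 0.000109) in the same cells. IL4R, the interleukin 4 receptor chain, was lower in ES, with a log2 fold change of -0.81 in FDX1-OE cells (SE 0.08, adjusted p = 9.6e-05) and -0.32 in control cells (SE 0.08, adjusted p = 0.0467). Under quantile normalisation 4 of the 7 rose and 2 fell, counts to which the shares above, those of the authors' scaling, do not apply.

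**Figure D5:**
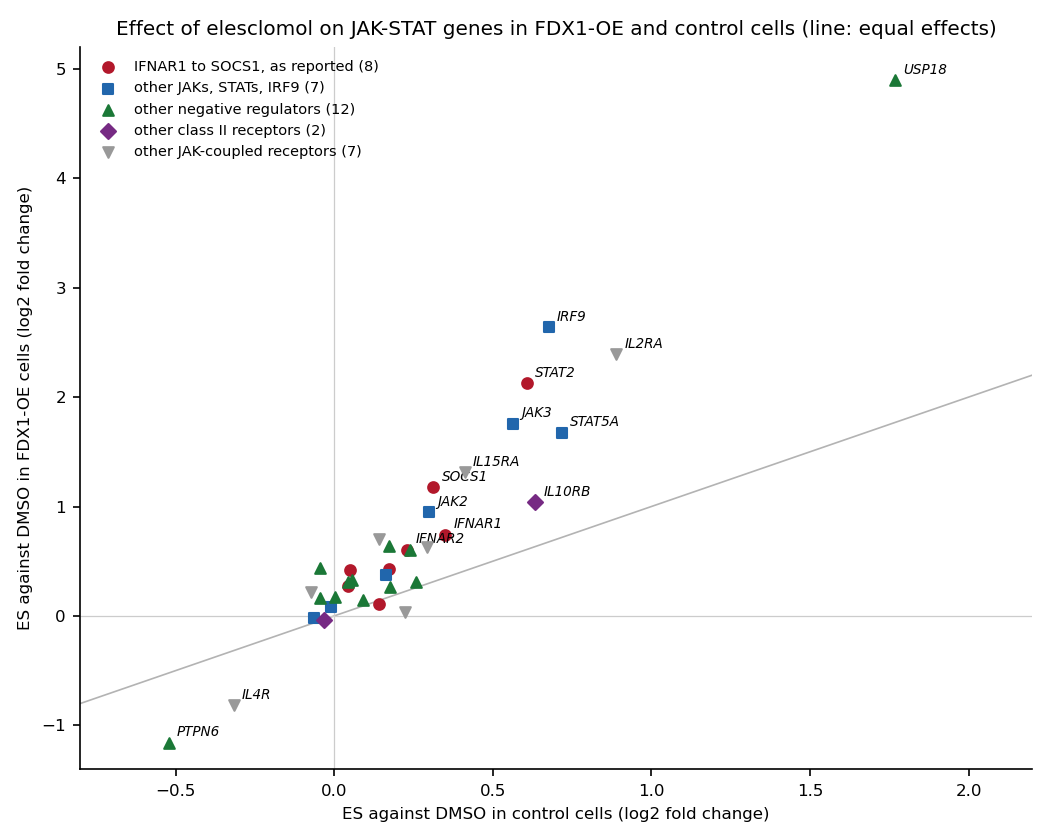
Log2 fold change of ES against DMSO in FDX1-OE cells (vertical axis) and in control cells (horizontal axis) for the 8 genes tested and 28 others of the pathway, by list, with a line at equal effects. Both axes rest on separate libraries; USP18 at 4.90 and 1.77 lies farthest up, and PTPN6 at -1.16 and -0.52 farthest down.

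Genes that are read as outputs of the pathway were counted for comparison. Of 16 ISRE-driven genes, 4 (MX2, IFIT1, IFI27 and IFI44L) reached 1 FPKM in FDX1-OE ES cells alone, so they passed the filter through the group where they are high and are left out of the counts here. Of the other 12, MX1, IFIT2, IFIT3, OASL, IFI6, IFI44 and RSAD2 reached 1 FPKM in ES libraries alone. The filter thus favoured a rise of these genes in ES. ISG15, OAS1, OAS2, OAS3 and IFI35 were above 1 FPKM in every library. All 12 rose in FDX1-OE cells given ES, with a median log2 fold change of 3.84. In that comparison 47.1% of all genes tested were higher and the median was 0.25. In control cells 10 of the 12 rose, with a median of 1.13, where 6.74% of all genes were higher. Of the genes above 1 FPKM in every library, OAS2, OAS3 and IFI35 were called there, and ISG15 and OAS1 were not. With all 16, the 4 left out above included, the count in control cells was 11. It was 7 under quantile normalisation and 15 with library weights. Calls among all genes tested in control cells likewise fell under quantile normalisation and rose with library weights, as given at the end. The ES effect was larger in FDX1-OE cells for 12 of the 12, as for 13.9% of all genes. Of 13 genes typical of interferon gamma, 7 were tested, and CXCL10 passed the filter through FDX1-OE ES cells alone. Of the other 6, 4 rose and 1 (IRF8) fell in FDX1-OE cells given ES, where 47.1% of all genes were higher and 13.7% lower, with a median of 0.71. In control cells limma called 0 of the 7 tested, where 3 had an unadjusted p below 0.05. With library weights limma called 3 of these 7, CXCL10 included in the list, higher and 1 lower. Calls among all genes tested also rose under that setting. IRF8 was not called with equal FPKM totals. The GAS-driven gene IRF1, a transcription factor, had an effect of 1.73 in FDX1-OE cells (SE 0.16, adjusted p = 7.7e-05), and TAP1, a peptide transporter of antigen presentation, 1.68 (SE 0.14, adjusted p = 5.5e-05).

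Genes with levels most like those of the genes above were ranked by Pearson's r over the 8 libraries, which share the 4-group structure, so high values are common and carry no p. For STAT2 they were HELZ2 (r = 0.998), ASF1B (0.998) and PARP12 (0.996). IFNAR1 was most like MARCHF7, PREPL and BANK1, at 0.987 to 0.988, and IFNAR2 most like ZNF41, SLC30A9 and AFTPH, at 0.993 to 0.999.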

How the data were processed

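The authors sequenced RNA of 8 libraries, 4 groups of 2, and deposited 1 table per library with 1 value for each of 60592 gene rows. No header names the unit, which was taken as FPKM from the values: the authors' numbers are not whole and their sums differ between libraries. Per the submitters' processing notes, HISAT2, HTSeq, R 3.2.0 and hg19 were used, with no role given. The handling of strands is not given in the sources used here. Judged by the commonest low value, the deepest library had 1.18 times the depth of the shallowest.

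Values were analysed as log2(FPKM + 1), a scale that shrinks the change of weakly expressed genes. The 12063 genes that reached 1 FPKM in 2 or more libraries were tested. Of these rows 38 carry a symbol found more than once, and none of those is named. limma 3.58.1 in R 4.3.3 fitted 4 group means with a mean-variance trend (4 residual and 4.25 prior degrees of freedom). Tests were two-sided with Benjamini-Hochberg adjustment over the genes tested, and an adjusted p below 0.05 counted as a call. The code of the fit was run on simulated data. These had the same normal scatter for every gene of a group, few changed genes and no shift of the median gene. The real libraries differ in all these respects, so that run does not bear on the calls reported here. The 5 comparisons share groups. The alternatives were a pseudocount of 0.1, no filter, 3 other scalings, fits of only the groups compared, library weights, a replicate term and leaving out each library. Ratios are of FPKM within a library.

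The genes described and the pathway lists were chosen with earlier results of these data known. From each list, up to 4 genes with the smallest p for the ES effect in FDX1-OE cells, plus any called elsewhere, could be named. STAT6, IRF8 and genes named for staying under the filter were chosen after their values were seen. Genes most alike were the 3 with the highest r, among genes averaging 2 or more on the log2 scale, for genes whose group means span at least 0.5. Promoter windows come from RefSeq on GRCh38.p14, exon overlaps from GENCODE 29 on GRCh38. Some genes of the lists and of the ranking by likeness are not reported here.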

Additional observations from a re-analysis of the deposited data

Results flagged for a closer look

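For 3 genes of the 8 tested, the effect of ES on the log2 scale differed between FDX1-OE and control cells by limma's test of the difference itself. Of all genes tested, 19% were called in either direction and 13.9% with the higher value in FDX1-OE cells, the direction of the 3. STAT2 differed by 1.52 (adjusted p = 0.00442), SOCS1 by 0.86 (adjusted p = 0.0175) and JAK1 by 0.37 (adjusted p = 0.0482). The JAK1 call was lost under 13 of 15 alternative settings and the SOCS1 call under 5, while the STAT2 call held under all 15. Both FDX1-OE ES libraries were above both FDX1-OE DMSO libraries for each of the 3 genes, and both control ES libraries were above both control DMSO libraries for STAT2 and SOCS1 but not for JAK1. Over all genes tested, 58.9% lay above without overlap in FDX1-OE cells and 48.2% in control cells. The mitochondrial share of FPKM, 14.7% and 11.9% in FDX1-OE ES cells and 16.9 to 17.6% in the other libraries, moved with the same group, and its part was not tested.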

How the results depend on the processing

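With 2 libraries a group and an unknown absolute depth, the precision of each value is limited, and IFNB1 could not be tested with the filter. In FDX1-OE cells given ES, the calls of STAT2, SOCS1, IFNAR1 and IFNAR2 held under all 16 alternatives. Over the values of the 8 genes in 5 comparisons, 543 of 632 alternative values kept direction and side of the threshold, 58 lost a call and 13 gained one. The cause was not tested for any change below.

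Of the 8 genes tested, ES against DMSO in FDX1-OE cells called 7, and 4 under median-ratio scaling. FDX1-OE against control in ES called 6, against 2 under median-ratio scaling, 3 under quantile normalisation and 3 with library weights. ES against DMSO in control cells called 1, against 0 with no filter, 0 under median-ratio scaling, 0 under quantile normalisation, 2 in the fit of only the groups compared and 2 with library weights. The difference of the ES effects called 3, against 1 with no filter and 6 with equal FPKM totals. Leaving out 1 library gave 1 to 6 genes called for FDX1-OE against control in ES, 0 to 3 for ES against DMSO in control cells, 5 to 7 in FDX1-OE cells and 1 to 4 for the difference.

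Among all genes tested, FDX1-OE against control in DMSO called 1, 3 with no filter, 4 with library weights, and 1 to 3 without 1 library. FDX1-OE against control in ES called 5008, 3117 in the fit of only the groups compared, 3026 with library weights, and 2499 to 5277 without 1 library. ES against DMSO in control cells called 934, 58 with no filter, 231 under quantile normalisation, 1675 in the fit of only the groups compared, 2523 with library weights, and 28 to 2342 without 1 library. The difference called 2291, 1339 with no filter, 1400 under quantile normalisation, 3885 with equal FPKM totals, and 535 to 3462 without 1 library. Higher against lower calls split 3757 to 1251 for FDX1-OE against control in ES and 2028 to 1987 under median-ratio scaling, 813 to 121 and 459 to 308 for ES against DMSO in control cells, and 1681 to 610 and 795 to 1011 for the difference.

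Values that changed sign belonged to genes not called. For ES against DMSO in control cells IFNGR2 gave -0.047 under median-ratio scaling, -0.030 under quantile normalisation and -0.018 to 0.105 without 1 library, and JAK1 gave -0.039, -0.046 and -0.0040 to 0.102. IFNGR1 gave -0.092 and -0.223 under these scalings for the ES effect in FDX1-OE cells, and -0.072 under quantile normalisation for FDX1-OE against control in ES. Its difference of the ES effects was 0.093 with equal FPKM totals and -0.136 to 0.079 without 1 library. For FDX1-OE against control in DMSO, leaving out 1 library gave -0.047 to 0.102 for IFNAR1, -0.098 to 0.053 for IFNAR2 and -0.0090 to 0.062 for TYK2.

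Libraries with the same replicate number did not deviate together from their group means (r from -0.05 to 0.08 between groups), so the numbers were not taken as a pairing. With a replicate block the calls were 7, 1, 6 and 2 genes of the 8 (the JAK1 difference had an adjusted p of 0.063) for ES in FDX1-OE cells, ES in control cells, FDX1-OE in ES and the difference, and 7235, 705, 4843 and 1922 among all genes.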
